A study of Homo sapiens with 3 samples.

Results

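The genes described here encode enzymes and receptors of prostaglandin E2, a lipid signal made from arachidonic acid. All array positions (probes) whose platform gene symbol is PLA2G4A, PTGS1, PTGS2, PTGES, PTGES2, PTGES3, HPGD, PTGR1, PTGER2 or PTGER4 were taken, 14 positions for 10 genes of the 20046 named genes on the array. Of the 10 genes, 4 had 2 positions and 6 had 1. The RNA came from A375, an established human melanoma cell line, in 3 states, each hybridised to 1 Illumina array. The adherent cells grew in DMEM with 10% fetal bovine serum, the suspended cells came from such cultures and were plated in that same medium at 400000 cells per 10 ml onto sterile plastic dishes, and the reattached cells were suspended cells placed in a culture dish with fresh medium for 1 day. No agent or genetic change distinguishes the states. How long cells stayed in suspension and how many cultures gave each RNA are not stated in the labels, and the fresh medium of the reattached cells cannot be told apart from attachment.

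The pathway starts when the phospholipase encoded by PLA2G4A frees arachidonic acid from membranes. The cyclooxygenases turn it into prostaglandin H2. PTGS1 encodes the form that many tissues hold at steady levels, and PTGS2 the form that cytokines, growth factors and stress induce, the target of many anti-inflammatory drugs. Terminal synthases then make prostaglandin E2, of which the microsomal enzyme encoded by PTGES is the inducible partner of PTGS2. HPGD and PTGR1 encode the enzymes that oxidise and then reduce prostaglandins to inactive forms, and PTGER2 and PTGER4 encode EP2 and EP4, receptors that raise cyclic AMP. In mouse models of melanoma, prostaglandin E2 made by tumour cells is known for restraining the immune response.

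Detection required a p-value under 0.01 against the array's background, which 35.6% to 37.5% of the 47323 positions met on an array. Values called levels are log2 intensities after background correction and quantile normalization, and values called signals are the scanner's intensities. Signals are not normalized between arrays, so a signal and a level can differ in direction. Since there was 1 array per state, no test was made, no value has a replicate error, and each difference is between single arrays. The melanocyte and melanoma markers SOX10, MITF, GPNMB, RAB38 and S100A1 were detected on all 3 arrays, 5 of 9 listed genes with a position, whereas PMEL, MLANA, TYR and S100B were not detected on any. The summed signal of the detected ones was 4716 in adherent, 7210 in suspended and 5185 in reattached cells, highest in suspension. The median signal of all detected positions was also highest there, at 233.3, 261.5 and 247.2 in the same order. Of 6 keratinocyte and epithelial markers, 2 were detected in adherent and reattached cells and 0 in suspension, with summed signals of 207, 132 and 167. Of 8 fibroblast markers 3 were detected in each state, with COL1A1, COL1A2 and COL3A1 not detected, and their summed signal was 443, 422 and 417. Of 6 leukocyte markers 3 were detected in each state, with PTPRC, CD3E and CD79A not detected, and a summed signal of 1177, 1358 and 1172. Of 4 endothelial markers 1 was detected in adherent cells and 0 in the other states. Whether these markers bear on the values below was not tested. In bulk RNA, fewer cells that express a gene and less of its RNA per cell cannot be told apart.

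Of the 10 genes, 7 were detected on all 3 arrays and 3 on none, where 9984 of all 20046 named genes were detected on all 3 arrays. The position of PTGS2 used below was close to the detection limit in adherent cells, with a detection p-value of 0.0091. PTGS1 was not detected, with signals of 42.2 adherent, 56.9 suspended and 52.7 reattached at the first position and 54.2, 69.9 and 64.0 at the other, whose detection p-values were 0.248, 0.0130 and 0.0286. HPGD, the main enzyme of prostaglandin breakdown, gave 53.6, 59.7 and 54.9, and PTGER2, the EP2 receptor, 50.3, 46.2 and 54.3. The median signal of all undetected positions was 50.9, 53.3 and 51.0. RNA at such signals was not detectable on these arrays, which does not show that it was absent. At a looser threshold of 0.05, PTGS1 would count as detected in suspended and reattached cells.

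**Figure D1:**
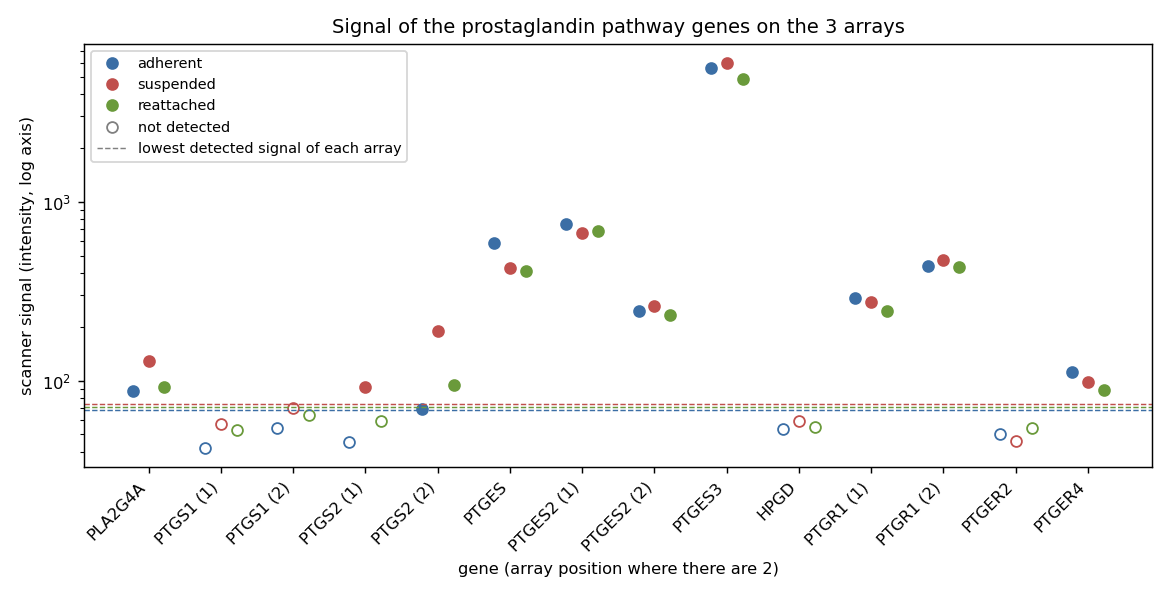
Scanner signal (log axis) of each array position of the 10 genes in adherent, suspended and reattached cells, 1 array each. Open circles were not detected and dashed lines give the lowest detected signal of each array (68.7, 73.6 and 71.4). At the position used, the adherent point of PTGS2 (69.5) lies just above its line. The points of PLA2G4A (87.7 to 129) and PTGER4 (88.1 to 111) lie somewhat higher. The suspended point of PTGS2 (188) stands apart from the other states.

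Cells without anchorage were first compared with attached cells. The cyclooxygenase PTGS2 was 3.95-fold higher in suspension and the phospholipase PLA2G4A 1.58-fold higher, whereas the terminal synthase PTGES was 1.54-fold lower. The other 4 detected genes, PTGES2, PTGES3, PTGR1 and PTGER4, differed by less than 1.5-fold. At 1.5-fold, 2 of 7 detected genes were higher, where 2.71% of all 10991 genes compared were, and 1 of 7 was lower, against 2.23%. Among the 2748 compared genes with the lowest levels, which include PTGS2, PLA2G4A and PTGER4, these shares were 4.18% and 4.11%. Here and below, the shares include genes detected on only 1 of the arrays compared, whose differences are bounds. Of the 10991 genes, 10204 were detected on both, as were all 7 described here. The median difference of the 7 genes was -0.03 on the log2 scale, and that of all genes 0.00.

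PTGS2 gave signals of 69.5 in adherent, 188 in suspended and 94.7 in reattached cells at the position used. The suspended array was the high one, and the reattached array lay between the others. The level was 5.16 in adherent and 7.15 in suspended cells, a difference of 1.98. It ranked 2 from the top of 10204 genes detected on both arrays, of which 0.0882% lay as far from 0 in either direction. Only 0.5% of all compared genes were at least 2-fold higher in suspension. The other position gave signals of 45.3, 92.1 and 59.5 and was detected in suspension alone, so it bounds the difference at no less than 1.51-fold. The suspended array was the high one there too, as a position detected in suspension alone would be, so its direction is no separate support. The size depends on how background is treated, since the fold was 2.23 with background left in, 2.51 with an offset of 50 and 2.49 with the authors' deposited normalized values.

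PLA2G4A encodes cytosolic phospholipase A2 alpha, which supplies both cyclooxygenases with substrate. Its signals were 87.7 in adherent, 129 in suspended and 91.5 in reattached cells. The suspended array was again the high one, and the other arrays were close to each other. The levels of 5.77, 6.43 and 5.92 gave a difference of 0.66 between suspended and adherent cells, rank 183 from the top. It was under 1.5-fold with background left in (0.38), with an offset of 50 (0.44) and with the authors' deposited normalized values (0.44).

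PTGES, the microsomal synthase, gave signals of 585 in adherent, 428 in suspended and 409 in reattached cells. The adherent array was the high one and the suspended and reattached arrays were close. From suspended to reattached cells the signal fell slightly while the level rose, so that direction rests on normalization. The levels of 9.13, 8.51 and 8.66 gave a difference of -0.62, rank 180 from the bottom, with 4.01% of genes as far from 0. The same 3 alternatives left it just under 1.5-fold, at -0.56, -0.58 and -0.57. PTGES and PTGS2, known as coupled enzymes, thus differed from adherent cells in opposite directions on these arrays.

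**Figure D2:**
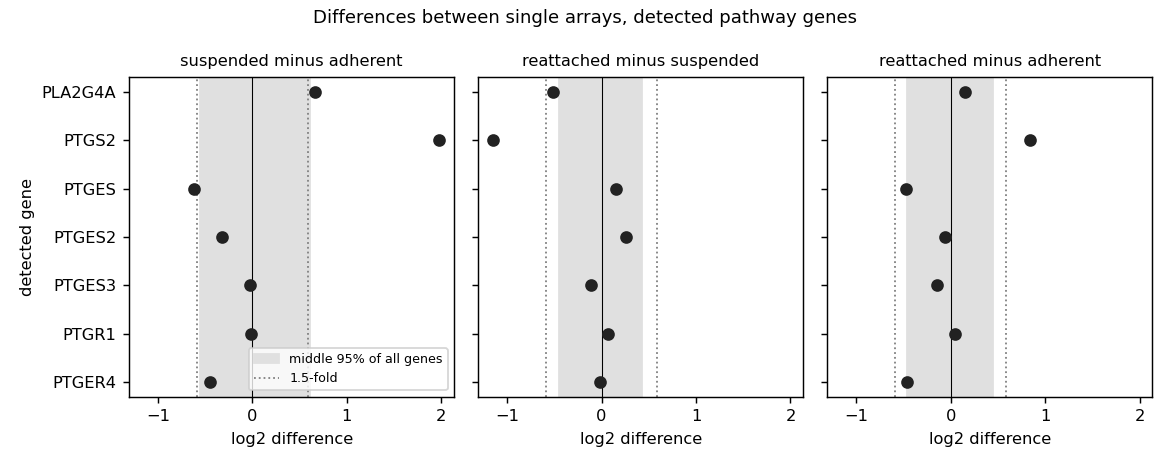
Differences in level (log2, horizontal) of the 7 detected genes between single arrays in the 3 comparisons, with the middle 95% of all compared genes in grey (-0.56 to 0.61 for suspended minus adherent) and 1.5-fold as dotted lines. PTGS2 lies outside the grey band in every panel, at 1.98, -1.15 and 0.84, with PLA2G4A just outside it in the panels with suspended cells (0.66 and -0.51), and PTGES just outside it in those with adherent cells (-0.62 and -0.47).

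PTGS2 and PLA2G4A, the members that were higher in suspension, are neighbours on chromosome 1. In the RefSeq gene table of GRCh38.p14, 1 gene lies between them, PACERR, a noncoding RNA that starts at the PTGS2 promoter and is not analysed here. PTGS2 is read from the minus strand and PLA2G4A from the plus strand, with start sites 149 kb apart. The 250 bases before the start sites of the 3 genes past 1.5-fold are printed below from the RefSeq promoter table (GRCh38.p14), 5′ to 3′ on the strand of the gene, at chr1:186680424-186680673 (minus) for PTGS2, chr1:186828699-186828948 (plus) for PLA2G4A and chr9:129753043-129753292 (minus) for PTGES. They are shown so that the start region of the gene that stood apart can be read beside those of its neighbour and its partner enzyme. Capitals mark matches to any of the motifs searched.
PTGS2: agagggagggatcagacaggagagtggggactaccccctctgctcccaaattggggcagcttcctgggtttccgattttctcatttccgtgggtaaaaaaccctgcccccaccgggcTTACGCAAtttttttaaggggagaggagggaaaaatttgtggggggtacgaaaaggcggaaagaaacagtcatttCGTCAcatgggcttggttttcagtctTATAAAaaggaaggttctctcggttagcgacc
PLA2G4A: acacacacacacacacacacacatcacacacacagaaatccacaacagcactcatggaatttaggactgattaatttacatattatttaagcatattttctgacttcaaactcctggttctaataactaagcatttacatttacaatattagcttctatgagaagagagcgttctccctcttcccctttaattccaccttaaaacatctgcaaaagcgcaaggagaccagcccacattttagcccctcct
PTGES: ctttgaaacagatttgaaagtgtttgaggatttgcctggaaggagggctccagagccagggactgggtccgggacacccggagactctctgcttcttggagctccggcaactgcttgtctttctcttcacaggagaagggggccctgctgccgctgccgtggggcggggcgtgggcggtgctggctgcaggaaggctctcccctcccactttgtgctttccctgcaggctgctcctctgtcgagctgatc

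The motifs, sought on both strands, were the C/EBP letters TTNNGNAA, the cyclic AMP response element TGACGTCA and its core TGACG (which the full element contains), the AP-1 letters TGANTCA, the TATA box letters TATAAA, the E-box CACGTG and the NF-kB consensus. The PTGS2 window held 1 match each to the C/EBP letters (bases 133 to 126 before the start), the cyclic AMP element core (58 to 54, on the other strand) and the TATA box (32 to 27). Of all 35116 promoters in the table, 33.2%, 21.2% and 10.7% held these letters. The windows of PLA2G4A and PTGES held none of the motifs. That of PTGS2 held no exact match to the NF-kB consensus, the full cyclic AMP element, the AP-1 letters or the E-box. Those 4 occur in 5.21%, 1.65%, 6.57% and 6.34% of promoters. Of the 14 promoters listed for the 10 genes, only that of PTGER4 held an exact match to the NF-kB consensus, at bases 244 to 235. Near matches were not counted. The PTGS2 window holds the letters gggactaccc, which differ from that consensus at 1 base, so the search does not show that it lacks an NF-kB site. A match describes letters and not binding.

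The remaining synthases encode enzymes that many cells make at steady levels. PTGES2, a membrane-bound synthase, gave signals of 747 in adherent, 666 in suspended and 681 in reattached cells at the position used, a difference in level of -0.32. Its other position gave 245, 260 and 231 and a difference of -0.03, so the positions did not give the same size. PTGES3, the cytosolic synthase also known as p23, a co-chaperone of HSP90, gave 5613, 5946 and 4841 with a difference of -0.03. On breakdown, PTGR1, which reduces the oxidised prostaglandin, gave 439, 474 and 429 with a difference of -0.02, and -0.24 at its other position. The EP4 receptor gene PTGER4 gave 111, 97.5 and 88.1, highest in adherent cells, with a difference of -0.45 that 9.76% of genes reached.

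How far positions of the same gene lie apart gives a measure of the error of a position, though not of that between cultures. Over 2593 genes with at least 2 positions detected on all arrays, the suspended minus adherent differences of both positions lay a median of 0.16 apart, and 0.45 apart at the 90th percentile. Where the dimmer position lay in that low range (714 genes), these gaps were 0.23 and 0.58. The gaps of PTGES2 (0.28) and PTGR1 (0.22) lay between the median and the 90th percentile. The PTGS2 positions, at 1.98 and, without raising undetected values, 1.35, lay 0.63 apart. That is beyond 0.58, though the other PTGS2 position was not detected in adherent cells, unlike the positions of the genes counted here. Among these dim genes, the difference of PTGER4 was smaller than 0.58, that of PLA2G4A slightly larger, and that of PTGS2 larger at the position used (1.98). The bound at the other PTGS2 position, 0.59, rests on the detection limit in adherent cells, so it cannot be set against that gap.

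Reattached cells, placed in a culture dish with fresh medium for 1 day, were next compared with suspended cells. PTGS2 was 2.21-fold lower after reattachment and PLA2G4A 1.42-fold lower, the reverse of their differences in suspension. PTGES stayed within 1.11-fold of the suspended level, PTGER4 within 1.01-fold. At 1.5-fold, 1 of 7 genes was lower (PTGS2), where 1.09% of all 10715 genes compared were lower, and 0 of 7 were higher, against 0.821%. Only 0.112% of all genes were at least 2-fold lower, and among the genes with the lowest levels 2.16% were at least 1.5-fold lower.

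The PTGS2 difference of -1.15 ranked 9 from the bottom of 10083 genes detected on both arrays. With the adherent and reattached arrays below it on both positions, the suspended array was the outlying one, and the other position bounds the difference at no less than 1.35-fold. PLA2G4A, at -0.51, ranked 161 from the bottom. PTGES2 was higher by 0.26 and by 0.02 at its other position, PTGES by 0.15 and PTGR1 by 0.07, and PTGES3 (-0.11) and PTGER4 (-0.02) were slightly lower. These 5 differences are smaller than the gap of 0.41 that positions of the same gene reached at the 90th percentile in this comparison. For genes with low levels that gap was 0.52, which PTGS2 exceeded and PLA2G4A did not. The signals of PTGES, PTGR1 and the other PTGES2 position were lower in reattached than in suspended cells, so their rise in level rests on normalization.

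The comparison of reattached with never suspended cells asks whether the adherent level was regained. PTGS2 was still 1.78-fold higher than in adherent cells, after 57.8% of its log2 difference had been lost. PLA2G4A lay 1.11-fold above the adherent level, with 77.4% of its difference lost. PTGES stayed 1.39-fold and PTGER4 1.38-fold below it, and PTGES had regained 23.6% of its difference in level, though its signal did not rise. At 1.5-fold, 1 of 7 genes was higher, PTGS2, where 0.887% of all 10821 genes compared were, and 0 of 7 were lower, against 1.1%. Among the genes with the lowest levels 2% were higher. These shares of return use the suspended array in both the loss and the difference, and have no error estimate.

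The PTGS2 difference of 0.84 ranked 15 from the top of 10084 genes detected on both arrays. It was under 1.5-fold in 3 alternatives, at 0.41 with background left in, 0.49 with an offset of 50 and 0.48 with the authors' deposited normalized values. With a detection threshold of 0.005, which the adherent signal does not meet, it is known only as no less than 0.40. At the other PTGS2 position neither array was detected. PTGES (-0.47) ranked 214 and PTGER4 (-0.46) 228 from the bottom, with 4.11% and 4.38% of genes as far from 0. PLA2G4A (0.15), PTGES3 (-0.14), PTGES2 (-0.06) and PTGR1 (0.05) lay within the gap of 0.44 that positions of the same gene reached at the 90th percentile, and PTGES was slightly beyond it. For genes with low levels that gap was 0.55, which PTGS2 exceeded and PTGER4 did not.

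**Figure D3:**
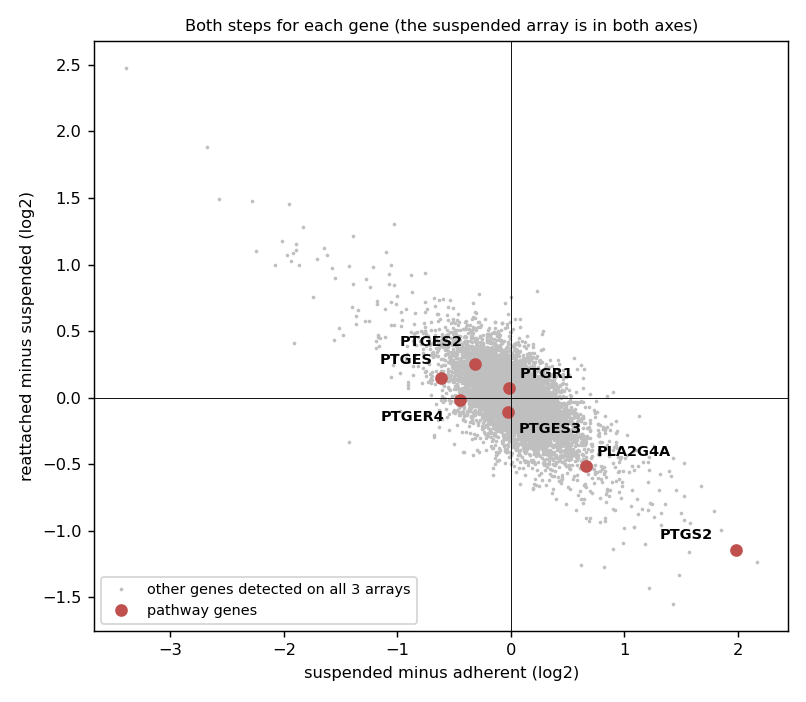
Difference in level of each gene detected on all 3 arrays between suspended and adherent (horizontal) and between reattached and suspended cells (vertical), log2, with the suspended array in both axes. PTGS2 (1.98 and -1.15) and PLA2G4A (0.66 and -0.51) lie to the lower right, and PTGES (-0.62 and 0.15) and PTGER4 (-0.45 and -0.02) to the left, near the horizontal line.

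By the distance between genes in the plot of both steps, over 3 arrays and 9984 genes detected on all of them, the pattern of PTGS2 was nearest to that of TAGLN3 (distance 0.19) and SPRR2D (0.21). LRRK2 (0.35), ID3 (0.41), MIR302C (0.45), MRGPRX4 (0.51), HINT3 (0.54) and MIR3142HG (0.56) followed.  MIR3142HG, the farthest of these and singled out for its known role, is the host gene of miR-146a, a microRNA that NF-kB induces. Whether NF-kB bears on MIR3142HG or PTGS2 here was not tested. MIR3142HG had levels of 5.28 in adherent, 6.78 in suspended and 5.91 in reattached cells. The adherent level is close to the lowest detected level of that array, 5.13. Nearest to PLA2G4A were TBX19, CSPG4, ENTPD7, P4HA2 and PCDHA7, at distances of 0.03 to 0.04, and to PTGES were VDR, RRAGB, FTH1P3, TNFSF9 and DENND2A, at 0.02 to 0.04.

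Genes around the pathway were described as lists, to be read against the 2.71% of all genes that were at least 1.5-fold higher in suspension, the 2.23% that were lower, and the median of 0.00 over all genes. Of 16 genes for phospholipases and arachidonate supply, 11 were compared between suspended and adherent cells, and PLA2G4A alone passed 1.5-fold, with a list median of -0.16. MGLL, which frees arachidonate by way of 2-arachidonoylglycerol, PLAAT3 and the acyltransferase LPCAT3 were lower by 0.49, 0.49 and 0.48. ACSL4, which activates arachidonate for return to membranes, was higher by 0.42. After reattachment MGLL was 0.50 higher and ACSL4 0.36 lower than in suspension. The secreted phospholipases PLA2G2A, PLA2G5 and PLA2G10 were not detected.

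Among 7 other prostanoid synthases, 4 were compared, and AKR1C3, which makes prostaglandin F2 alpha and its 11-beta isomer, was lower. Its signals were 1227 in adherent, 732 in suspended and 824 in reattached cells, and the level was 1.88-fold lower in suspension than in adherent cells. After reattachment it lay 1.31-fold above the suspended and 1.44-fold below the adherent level. The AKR1C genes are similar in sequence, and whether the position reads AKR1C3 alone was not tested. AKR1C2 differed by 0.16 between suspended and adherent cells, and AKR1C1 was not detected. TBXAS1, the thromboxane synthase, was detected only in suspension, and PTGDS, HPGDS and PTGIS on no array. The list median was -0.13.

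Of 12 entries for breakdown and transport of prostaglandins, 7 were compared and 0 passed 1.5-fold in any comparison, with a median of 0.16 between suspended and adherent cells. PTGR2, a further prostaglandin reductase, was higher by 0.48 and the carbonyl reductase CBR3 by 0.42. ABCC4, which exports prostaglandins, differed by 0.14, and SLCO2A1, which takes them up, was not detected. Of 10 receptor genes 2 were compared, PTGER4 and PTGFRN (0.36), which binds to the prostaglandin F receptor. PTGER1, PTGER3, PTGDR, PTGDR2, PTGFR, PTGIR and TBXA2R were not detected on any array, as was PTGER2, so PTGER4 was the only prostanoid receptor detected. In the lipoxygenase branch, which draws on the same arachidonate, 5 of 14 were compared and 0 passed 1.5-fold, with LTB4R (0.40) and MGST3 (0.30) farthest from 0. ALOX5, ALOX12 and ALOX15 were not detected.

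Of 18 transcription factors known to act on PTGS2, 17 were compared between suspended and adherent cells, 2 at least 1.5-fold higher and 1 lower, with a median of -0.03. Of all genes 2.71% were higher and 2.23% lower, and of those with low levels 4.18% and 4.11%. FOS, a subunit of AP-1, was 1.75-fold higher, with signals of 141 adherent, 243 suspended and 189 reattached. NFKB2, an NF-kB subunit, was 1.56-fold higher, with signals of 128, 196 and 189. A further NFKB2 position gave a difference of 0.37, and a remaining one was not detected. CEBPA was 1.57-fold lower and 1.55-fold higher again after reattachment, with signals of 93.5, 76.5 and 90.7 that are close to the detection limit. NFKB1 differed by 0.45, JUNB by 0.43, RELA by -0.32, JUN by -0.01, CEBPB by -0.09 and CREB1 by 0.24. In reattached cells 2 of the 17 were at least 1.5-fold above adherent cells, FOS (0.59) and NFKB2 (0.78), and 0 were as far below. Of all genes 0.887% were higher and 1.1% lower in that comparison, and the median of the 17 was -0.01. Between reattached and suspended cells FOS differed by -0.22 and PTGS2 by -1.15. NFKB2 was higher by 0.15 there, and by 0.40 at its further detected position.

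The PTGS2 messenger is short-lived, and proteins that bind its AU-rich elements set its decay. Of 10 such factors, 9 were compared and 0 passed 1.5-fold in any comparison, with a median of -0.11 in suspension, where that of all genes was 0.00. KHSRP, which promotes decay, differed by -0.34 and RBM3 by -0.27, ZFP36 by -0.12 and the stabilising ELAVL1 by -0.09. Of 14 genes that cyclic AMP and CREB induce, as downstream of EP2 and EP4, 10 were compared and 2 were at least 1.5-fold higher in suspension, where 2.71% of all genes were, with a median of 0.08. These were FOS and the nuclear receptor NR4A2, which had signals of 273, 561 and 366 and was higher by 1.00 on the log2 scale, and by 1.18 at its other position. Between reattached and suspended cells the median of these 10 genes was -0.19 and that of all genes 0.01, with CREM (-0.47) and NR4A2 (-0.45) lowest and 0 past 1.5-fold. Of 12 genes for HSP90 and the partners of PTGES3, 11 were compared and 0 passed 1.5-fold, with SUGT1 (-0.47) and CHORDC1 (0.43) farthest from 0 in suspension.

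**Figure D4:**
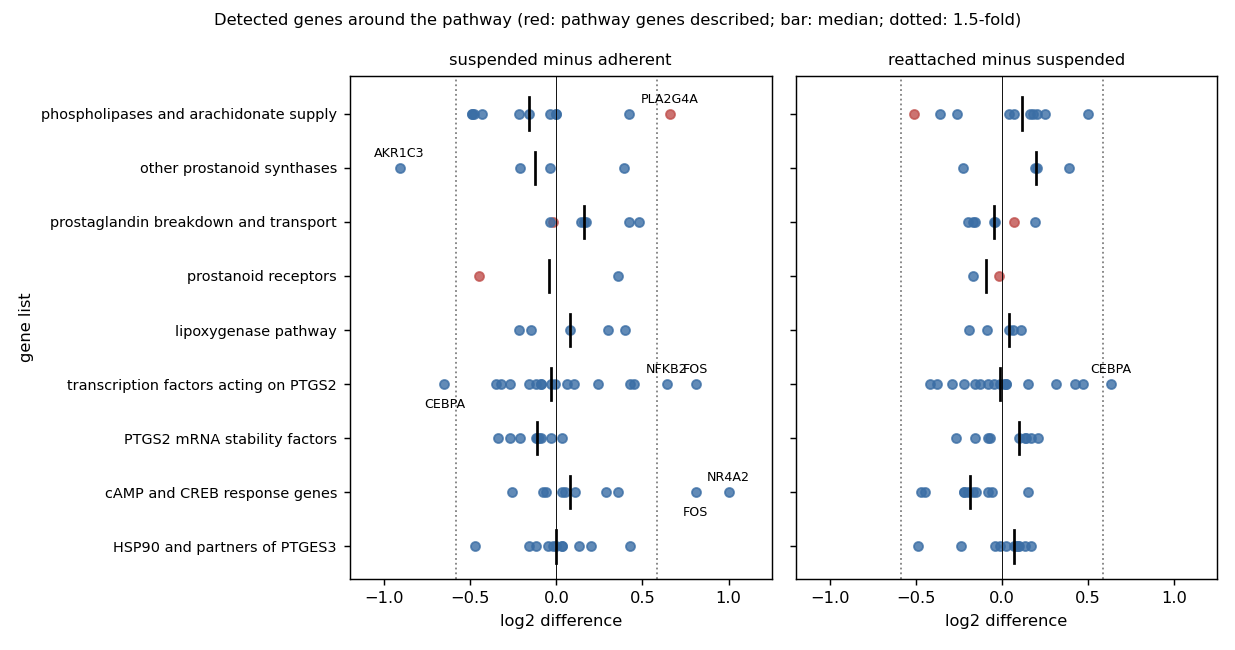
Differences in level (log2, horizontal) of the detected genes of each list, suspended minus adherent at left and reattached minus suspended at right, with genes described as pathway members in red, list medians as bars and 1.5-fold as dotted lines. FOS and CBR1 each appear in 2 lists. Most genes lie between the dotted lines, and AKR1C3 (-0.91) and NR4A2 (1.00) lie farthest out at left.

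**Figure D5:**
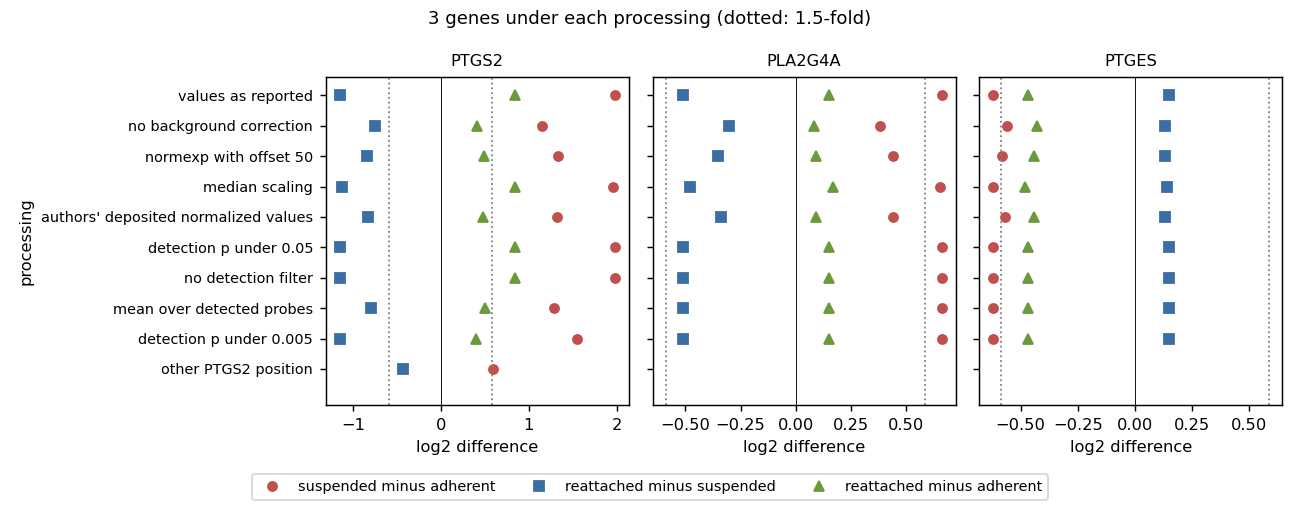
Differences in level (log2, horizontal) of PTGS2, PLA2G4A and PTGES in the 3 comparisons (symbols) under each processing (vertical), with 1.5-fold as dotted lines; each panel has its own scale, and for PTGS2 the mean over positions, the threshold of 0.005 and the other position include values raised to the detection limit. PTGS2 keeps its sign in every setting shown, from 0.59 (a lower bound) to 1.98 for suspended minus adherent. At its other position, detected in suspension alone, that sign is no separate support. PLA2G4A (0.38 to 0.66) and PTGES (-0.62 to -0.56) cross 1.5-fold.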

How the data were processed

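Total RNA of 3 A375 states was hybridised to Illumina arrays, 1 array each. Per the labels' protocols, Trizol was used for extraction and an Ambion kit for biotin labelling of cRNA. The deposited scanner table holds 1 signal intensity and 1 detection p-value for each position and array, per the file headers. The intensity values are linear and not normalized. The detection p-value, deposited by the authors, runs in steps of 1 in 770. The authors' second table, which ranks positions on an array as the scanner table does and has nearly equal array medians (58.09 to 58.11), served as an alternative. No label or header names the scanner software or its background step.

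Levels came from limma 3.58.1 (R 4.3.3) with its neqc function. Background was estimated through the detection p-values, the offset was 16, and log2 values followed quantile normalization. Python 3.11.15 with pandas 2.3.3 and matplotlib 3.10.9 did the rest. Positions were named from the platform annotation, with 30113 of 47323 given 1 symbol. A gene was represented by its detected position with the highest mean level. It entered a comparison if detected on either array, and an undetected value was raised to the lowest detected level, so that such a difference is a bound. The fold counting was checked on simulated data. Folds were simulated only at positions brighter in adherent cells than those of PTGS2, PLA2G4A and PTGER4, so the check does not cover these genes. Signal over background and the number of arrays limit precision.

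The genes and lists were chosen with earlier results of these data known. All 10 genes were named, with listed genes past 1.5-fold or, where a list had none, the 2 farthest from 0 in suspension, and the 8 or 5 genes nearest in pattern. Further listed genes were named for their role after their values were seen. Protein comparisons were not made. Alternatives were the background step, offset, scaling, the authors' values, the detection threshold and the choice of position.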

Additional observations from a re-analysis of the deposited data

How the results depend on the processing

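PTGS2, PLA2G4A and PTGES kept their direction in each comparison under every alternative that gave a value. The other PTGS2 position gave none for reattached against adherent cells. As it was detected in suspension alone, its direction in the remaining comparisons is no separate support. A difference counted as moved beyond a change of 1.5-fold. For suspended minus adherent, PTGS2 moved to 1.15 with background left in, 1.33 with an offset of 50 and 1.32 with the authors' deposited normalized values. As the mean over positions it was no less than 1.29, since the other position was raised to the detection limit in adherent cells. At the other PTGS2 position alone, chosen after seeing the data, it was no less than 0.59 and reattached minus suspended -0.43 or lower. At a detection threshold of 0.005, also chosen after seeing the data, it was no less than 1.55. The number of genes past 1.5-fold in suspension was 1 in place of 3 with background left in, with an offset of 50 and with the authors' values. In reattached against adherent cells it was 0 in place of 1 under those. The count was also 0 there under the mean over positions, the threshold of 0.005 and the other PTGS2 position, and 0 in reattached against suspended cells at that position. These counts do not show PTGS2 within 1.5-fold, since its value was a bound, rested on the detection limit or was missing. Of 21 differences, signs turned for PTGER4 under median scaling (-0.02 to 0.02) and PTGR1 under the mean over positions (0.05 to -0.08), both far under 1.5-fold. Over all genes, 298 higher and 245 lower past 1.5-fold in suspension became 135 and 96 with background left in, 158 and 116 with an offset of 50, and 149 and 113 with the authors' values. For reattached against suspended cells, 88 and 117 became 33 and 48, 39 and 57, and 39 and 53. For reattached against adherent cells, 96 and 119 became 17 and 30, 31 and 41, and 22 and 40, and 63 and 103 at a threshold of 0.005. PTGS2 and PLA2G4A lie near the detection limit, where background treatment sets the size of a fold. No paired analysis was possible because each state has 1 array.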
